A study of Mus musculus with 2 samples.

Results

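The transcription factors that set the phenotype of vascular smooth muscle cells (VSMCs) were followed in 1 pooled single-cell RNA library of cultured mouse aortic VSMCs. The 10 genes, taken by symbol from the 32285 measured, were Myocd, Srf, Mrtfa, Mrtfb, Klf4, Klf5, Tcf21, Mef2c, Ets1 and Runx1. In contractile VSMCs, serum response factor (SRF) binds CArG boxes in the promoters of contractile genes and is switched on there by myocardin and by the actin-sensing myocardin-related factors. Krüppel-like factors and ETS-domain factors oppose or replace this programme when the cells dedifferentiate, divide or take up matrix-making and inflammatory states. This change of state is known from injured and atherosclerotic arteries and from cells put into culture.

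Cells of 4 cultures were marked with oligo-tagged antibodies (hashtags), mixed and read together. By the numbers in the study's schematic, tag 1 marked young VSMCs from mice of 12 weeks and tag 2 old VSMCs from mice of 58 to 78 weeks. By the same numbers, tag 3 marked young VSMCs given 100 nM angiotensin II (AngII) for 48 h. Tag 4 marked old VSMCs transfected with siRNA to Piezo1 at 20 nM for 48 h. That siRNA dose is from the study's methods, and its results text gives a higher one. The schematic does not call its numbers tag numbers, so the tag stays beside each group name. All were primary aortic VSMCs of C57BL/6 mice from commercial suppliers. The study's methods name 6-well plates for the siRNA transfection. The study names non-targeting siRNA for old cells that it stained, but no source used here says whether the sequenced tag 2 cells received it. With 1 culture per tag there was no replicate of a group, so no test was made between tags. Levels are UMIs scaled to a common library total (CPM) with exact 95% Poisson intervals, and ratios carry exact 95% binomial intervals, all of which cover counting error only.

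Of 13045 cells with at least 2218 gene UMIs and 200 genes, 6670 carried a single tag, namely 3144, 497, 1500 and 1529 cells for tags 1 to 4, with median depths of 6816, 10663, 9454 and 9792 UMIs. The tag signal was weak for tags 2 and 4, where 179 and 482 cells had their tag at 3 times the next or more. All 9 VSMC markers were present in every tag, summing to 1019 to 2133 CPM, beside 39.5 to 76.6 CPM for 5 fibroblast, 16.1 to 26.0 CPM for 6 macrophage, 8.88 to 23.5 CPM for 6 epithelial and 3.75 to 8.42 CPM for 6 endothelial markers. Tagln led the VSMC sum in each tag. Myh11 stood at only 1.94 to 7.89 CPM and Des at 0.871 to 3.77 CPM, below the fibroblast marker Pdgfra at 31.0 to 63.8 CPM. Dcn and Col1a1, on neither list, stood at 448 to 676 CPM and 219 to 541 CPM. The sums alone do not settle the cell type. Tag 1 stood apart in 6 interferon response genes, at 2616 CPM against 85.0, 313 and 99.96 CPM in tags 2 to 4, and tag 3 in its median mitochondrial share of 0.224% against 1.08 to 1.86%. The share of cells that held Y-linked but not Xist UMIs was 54.1, 19.5, 55.5 and 13.8% in tags 1 to 4, so the tags also differed in the mix of male and female cells. Piezo1 stood at 86.9 CPM in tag 4 and 89.7 CPM in tag 2, which does not check the siPiezo1 label. The part of each of these in the results that follow was not tested.

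Detection among the factors spanned a wide range, which sets how firmly each can be compared. Over all 13045 cells Mrtfa had 11113 UMIs, Klf4 10104, Runx1 7747, Ets1 6605 and Mrtfb 4614. Klf5, Mef2c and Srf followed with 1321, 1248 and 709 UMIs. Myocd had only 156 UMIs in 133 cells, and Tcf21, a factor of epicardial and fibroblast-like states, only 8 UMIs in 7 cells. UMIs come from transcript ends and differ in capture between genes, so these totals rank precision and not abundance. On GRCm38 (GENCODE), Klf4 lies at chr4:55527143-55532466 and Srf at chr17:46548329-46556175, both short genes on the minus strand, while Mrtfa (chr15:81012281-81190757, minus) and Mef2c (chr13:83504034-83667080, plus) span 178.5 and 163 kb. Free RNA in barcodes of 1 to 100 UMIs held Klf4 at 67.3 CPM and Mrtfa at 70.6 CPM, not far from the 87.8 and 96.6 CPM of cells, and no cell type here is known to lack them, so a cell with 1 UMI is not read as an expressing cell.

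Klf4, a zinc-finger factor that represses contractile genes, showed the widest gap among the well-detected factors. It stood at 143 CPM (137.9 to 147.5) in the young cells of tag 1, 71.5 CPM (64.7 to 78.9) in the old cells of tag 2, 81.7 CPM (77.2 to 86.4) in the AngII-treated young cells of tag 3 and 70.1 CPM (66.1 to 74.3) in the old cells labelled siPiezo1 of tag 4. Tag 1 lay above the other tags with no overlap of intervals, and tags 2 and 4 overlapped. The ratio was 0.502 (0.451 to 0.557) for tag 2 over tag 1, 0.573 (0.536 to 0.612) for tag 3 over tag 1 and 0.980 (0.873 to 1.101) for tag 4 over tag 2. Cells under 5000 UMIs, 747, 21, 136 and 114 in tags 1 to 4, were left out of all thinned values. With the other cells thinned to 5000 UMIs, 46.6, 25.2, 30.3 and 27.2% of them held a Klf4 UMI. Before thinning, 56.2, 43.9, 47.3 and 45.2% of all cells in tags 1 to 4 did. Klf4 and the interferon genes were both highest in tag 1. Without clusters 2 and 11, the clusters with genes of the interferon list among their leading 10, which left 1248 of the 3144 tag 1 cells, Klf4 stood at 129 CPM in tag 1 and its ratios were 0.553 and 0.631. Clusters 7 and 10, with 539 and 138 tag 1 cells, stayed in, though the interferon list summed to 2358 and 1806 CPM there. Klf4 in these tag 1 cells was 166 and 125 CPM. With clusters 2 and 11 left out, the interferon list stayed lower in tag 2 than in tag 1, at a median ratio of 0.0494 against 0.0316 with all clusters. The fibroblast markers Pdgfra and Dpt, the 2 of 5 with enough UMIs, were also lower in tag 2 than in tag 1, at 0.486 and 0.518, and their part in the result was not tested. In the subset that held Y-linked but not Xist UMIs the tag 2 over tag 1 ratio was 0.433 (0.342 to 0.543). Within cluster 3 Klf4 was 123 CPM (97.6 to 152.8) in 74 cells of tag 1 and 81.5 CPM (75.5 to 87.9) in 852 cells of tag 3. Within cluster 4, of which 81.5% were called doublets, it was 111, 97.9, 77.9 and 85.9 CPM in tags 1 to 4. Within cluster 0 it was 78.7 CPM in 53 cells of tag 1, 53.3 CPM in tag 2 and 51.6 CPM in tag 4. Tag 1 was highest in each of these 3 clusters, the ones with at least 50 cells of it and of another tag, but its interval overlapped that of tag 2 in clusters 0 and 4 and that of tag 4 in cluster 0. In such sums, fewer cells with a transcript and less of it per cell cannot be told apart.

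Klf5, a relative of Klf4 tied to growth and remodelling, was highest in a different tag. Its levels were 10.4 CPM (9.16 to 11.8), 10.6 CPM (8.05 to 13.7), 16.9 CPM (14.9 to 19.1) and 9.75 CPM (8.28 to 11.4) in tags 1 to 4. Only the AngII-treated cells of tag 3 stood clear of the rest, at 1.62 times tag 1 (1.36 to 1.94). Over 15 other choices of cells and counts that ratio ran from 1.34 to 2.17, and the lowest, inside 1.5-fold, came without clusters 2 and 11.

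Srf, the DNA-binding partner of the myocardin family, is itself a CArG-box gene, and its promoter is shown because it was the only one among the 7 factors with a promoter window that held the box. On the minus strand at chr17:46556163-46556412 (GRCm38.p6, RefSeq), the 250 bases before the start held 2 boxes, in capitals, whose first bases lay 82 and 62 bases upstream of the start.
Srf: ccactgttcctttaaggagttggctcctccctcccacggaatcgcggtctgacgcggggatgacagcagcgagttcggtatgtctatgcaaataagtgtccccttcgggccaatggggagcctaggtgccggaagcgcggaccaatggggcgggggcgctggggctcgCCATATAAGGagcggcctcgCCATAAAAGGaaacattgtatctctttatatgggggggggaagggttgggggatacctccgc
A CArG box was present in 1.63% of 32851 promoter windows of 300 bases, and Myocd, Klf5 and Ets1 had no window in the table. The windows counted here and below left out 1 chromosome. A match is a description of the letters only. Srf stood at 4.89 CPM (4.05 to 5.86) in tag 1, 5.38 CPM (3.63 to 7.68) in tag 2, 8.24 CPM (6.85 to 9.83) in tag 3 and 6.21 CPM (5.05 to 7.55) in tag 4. Tag 3 lay above tag 1 with a ratio of 1.68 (1.30 to 2.19), and above tag 2 and tag 4 by ratios whose intervals came close to 1, 1.531 (1.02 to 2.365) over tag 2 and, for tag 4 over tag 3, 0.754 (0.573 to 0.990). The ratio of tag 2 over tag 1, 1.1 (0.711 to 1.65), and that of tag 4 over tag 2, 1.154 (0.761 to 1.80), leave a change of 1.5-fold within their intervals.

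The coactivators of SRF differed from one another. Mrtfa, which moves into the nucleus when actin polymerises, stood at 85.7 CPM (82.0 to 89.5), 98.97 CPM (90.9 to 107.6), 117 CPM (111.8 to 122.8) and 84.9 CPM (80.4 to 89.5) in tags 1 to 4. It was highest in tag 3, 1.37 times tag 1 (1.28 to 1.46), and lower in tag 4 than in tag 2 at 0.858 (0.776 to 0.948), both short of 1.5-fold. The first passed it at 1.586 without called doublets and at 1.6 in cells with no UMI of a dividing-cell marker. Mrtfb, its close relative, stood at 34.3, 41.2, 36.8 and 44.9 CPM, highest in tag 4. Myocd, the coactivator most restricted to muscle, had 68, 2, 35 and 5 UMIs, or 2.82, 0.359, 2.34 and 0.310 CPM. The young cells of tags 1 and 3 lay above the old cells of tags 2 and 4, and the tag 2 over tag 1 ratio of 0.127 rested on 2 UMIs (0.0151 to 0.478).

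**Figure D1:**
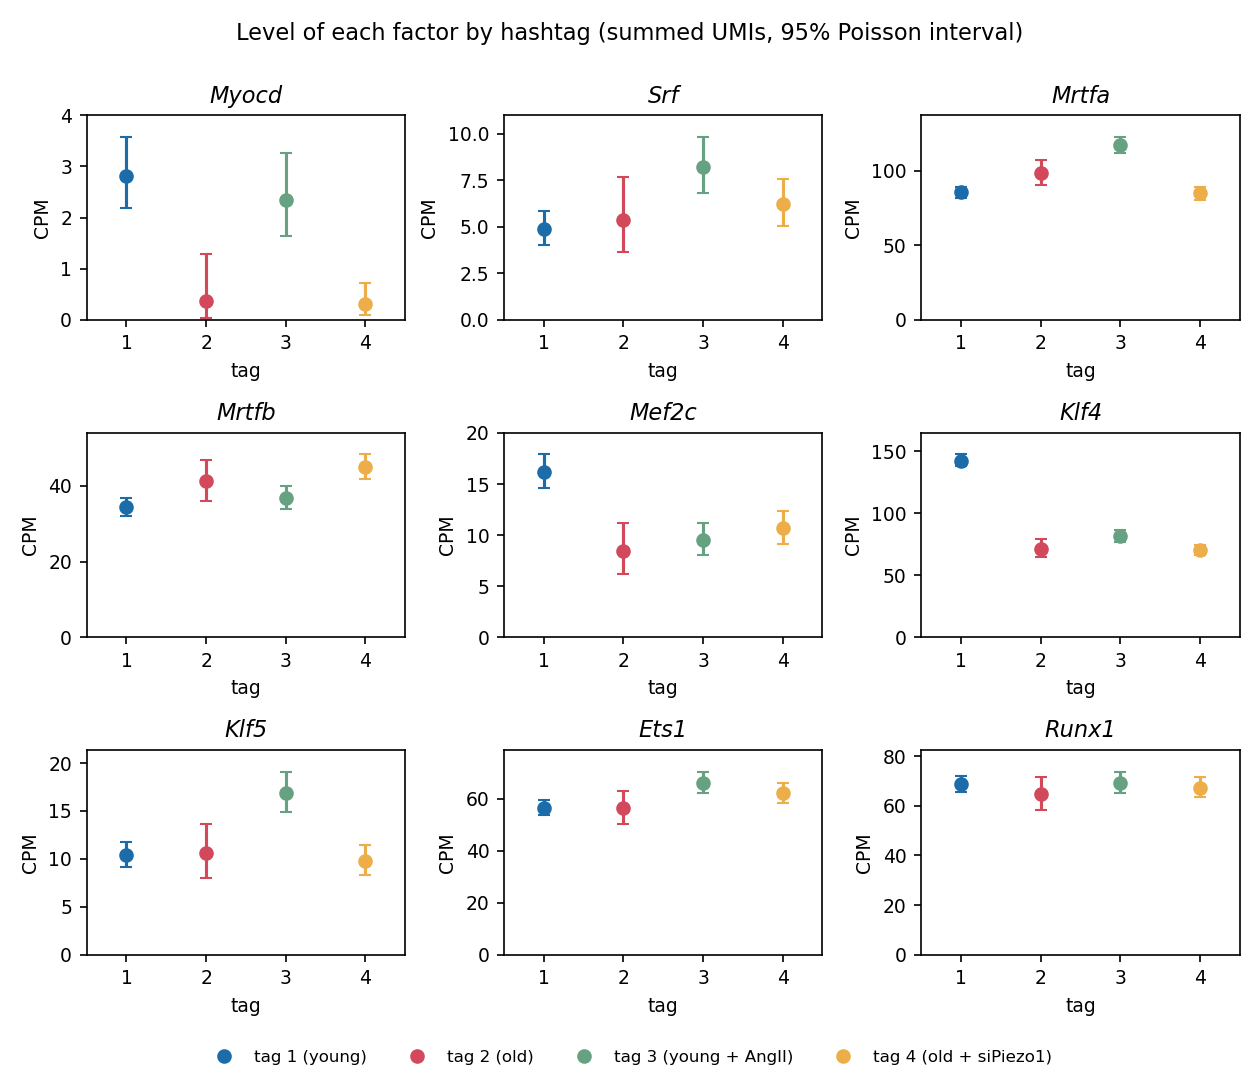
Level of each factor but Tcf21 in CPM (vertical axes, each from 0) by hashtag 1 to 4 (horizontal axes), where points are summed UMIs and bars exact 95% Poisson intervals. Klf4 and Mef2c are highest in tag 1, Klf5, Srf and Mrtfa in tag 3, and Runx1 is level across the tags.

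Mef2c, a MADS-box factor of muscle differentiation, was, like Klf4, highest in tag 1, with 16.2 CPM (14.6 to 17.9) in tag 1 against 8.43 CPM (6.19 to 11.2), 9.51 CPM (8.01 to 11.2) and 10.7 CPM (9.14 to 12.4) in tags 2 to 4. Its ratio was 0.520 (0.376 to 0.705) for tag 2 over tag 1 and 0.587 (0.481 to 0.713) for tag 3 over tag 1. The first rested on 47 UMIs in tag 2 and came to 0.773 after thinning, inside 1.5-fold. Ets1, an ETS-domain factor of migration and inflammation, stood at 56.5, 56.5, 66.03 and 62.1 CPM. Runx1, a factor of modulated and proliferating VSMCs, stood at 68.7, 64.7, 69.4 and 67.4 CPM, and the interval of the ratio held 1 in all 6 pairs of tags. Tcf21 had 4, 0, 0 and 1 UMIs, too few to compare. The 0 UMIs of tag 2 allow up to 0.538 CPM by a floor of 3 UMIs and up to 0.661 CPM by the exact interval.

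Counted together, 3 of 9 measured factors lay past 1.5-fold in old over young cells (tag 2 over tag 1), all lower (Myocd, Klf4 and Mef2c), where 25.2% of 12503 genes did so in either direction. Which factors passed changed with the choice of cells. In AngII-treated over untreated young cells (tag 3 over tag 1), 4 of 9 did, Srf and Klf5 higher and Klf4 and Mef2c lower, against 20.8% of 12931 genes. In the cells labelled siPiezo1 over old cells (tag 4 over tag 2), 0 of 8 did, against 6.95% of 11836 genes. The list is short and the tags have no replicates, so these counts are a description. The first pair of comparisons share the tag 1 cells. The median log2 ratio of the factors was -0.00075, 0.10 and 0.09, beside 0.02, 0.01 and 0.03 over all genes.

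**Figure D2:**
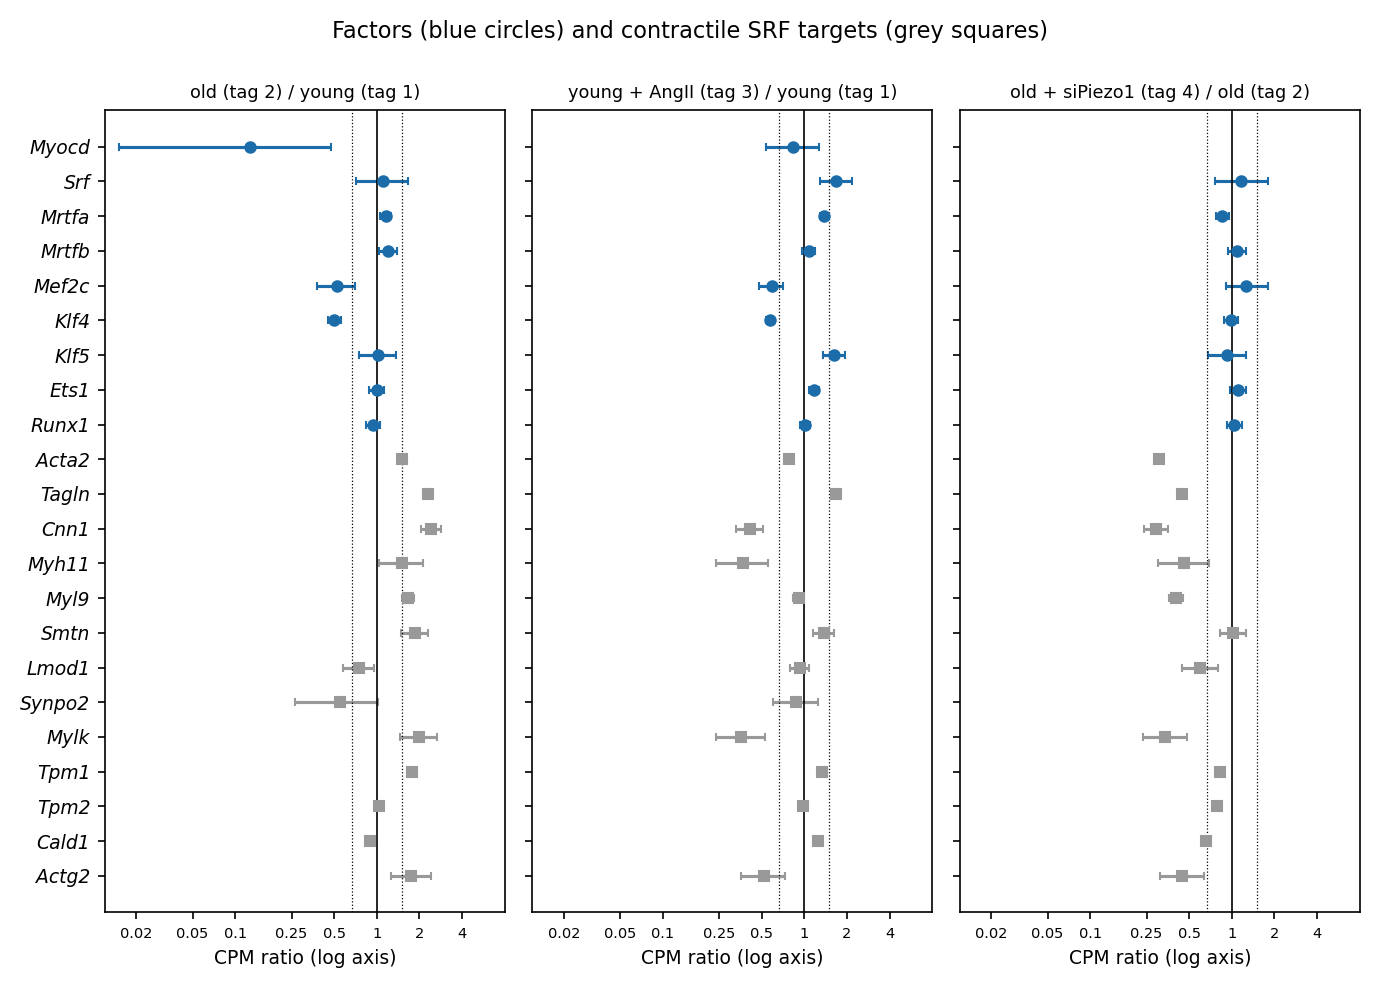
Ratio between tags (horizontal axes, log scale) for the factors (blue circles) and the contractile targets of SRF (grey squares), with exact 95% intervals. Klf4 lies at 0.502, 0.573 and 0.980 in the comparisons of tag 2 with 1, 3 with 1 and 4 with 2.

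The known targets of these factors were described from lists. Over all genes, 25.2% lay past 1.5-fold in either direction in tag 2 over tag 1. The share was 20.8% in tag 3 over tag 1 and 6.95% in tag 4 over tag 2. Of 9 immediate early targets of SRF, 2 were higher and 3 lower in tag 2 than in tag 1, with a median ratio of 0.942. In tag 3 over tag 1, 1 was higher (Egr3, 1.57) and 4 were lower, including Fos (0.365) and Fosb (0.310), with a median of 0.779. In tag 4 over tag 2, 0 of the 8 measured were past the fold. Of 13 measured contractile SRF targets, 8 were past 1.5-fold higher in tag 2 than in tag 1, including Tagln (2.304-fold) and Cnn1 (2.43-fold), and 1 was lower (Synpo2, 0.547). In tag 3 over tag 1, 1 was higher (Tagln, 1.68) and 4 were lower, including Myh11 (0.369) and Mylk (0.358). In tag 4 over tag 2, 9 of 12 were lower and none higher, with Cnn1 at 0.292 and Acta2 at 0.306, while Srf and Mrtfa stood at 1.154 and 0.858 there. Under each of 12 other choices of cells or counts none of the list was higher and 5 of 8 or more were lower. The median ratio of the list was 1.66, 0.910 and 0.452. Among cells with no UMI of a dividing-cell marker, 1143 of tag 1 and 142 of tag 2, the first median was 0.869. The count there was still 3 higher and 1 lower of 11. The direction of the median in old over young cells so depended on that choice, made after seeing the data. Of 12 cytoskeletal targets of the MRTF and SRF pair, 0 were higher and 3 lower in tag 2 than in tag 1 (Csrp1 at 0.659, Fhl2 at 0.643 and Ccn2 at 0.453), and 1 was lower in tag 4 than in tag 2 (Ccn2, 0.620). Both counts were near the shares over all genes in those comparisons. In tag 3 over tag 1, 3 of the 12 were higher and 1 lower (Csrp1, 0.572), beside 20.8% of all genes in either direction. Those higher were the cytoplasmic actin Actg1 at 1.57, the matricellular factor Ccn2 at 2.25 and the adhesion gene Zyx at 1.56. Over other choices of cells or counts the number higher ran from 2, in cells with no UMI of a dividing-cell marker, to 8 without called doublets. The share over all genes is given for the main choice only.

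Within each tag, cells with at least 1 Acta2 UMI were compared with cells without, giving 8 sums from 4 cultures. Acta2-positive cells numbered 1538, 271, 803 and 514 in tags 1 to 4, or 48.9, 54.5, 53.5 and 33.6%. They were deeper, at 7580 against 6305 median UMIs in tag 1, and 25.3 to 32.3% of them were called doublets against 13.6 to 18.9% of the negative cells. Srf stood at 5.78 against 3.86 CPM, 6.04 against 4.41, 9.14 against 7.04 and 9.01 against 4.34 in positive against negative cells, higher in 4 of 4 tags. The intervals of the ratio held 1 in tags 2 and 3. With cells thinned to 5000 UMIs Srf was higher in 3 of 4 tags, the exception being tag 2 at 4.72 against 6.06 CPM on 5 and 8 UMIs. Its fitted log2 difference was 0.66 ± 0.16 (SE), with an adjusted p of 0.0718 by edgeR's quasi-likelihood test. Mrtfa stood at 98.8 against 70.5 CPM, 106.4 against 88.3, 116.1 against 118.8 and 96.7 against 77.1, higher in 3 of 4 tags, with 0.28 ± 0.07 and an adjusted p of 0.0899.

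No factor passed the edgeR test, 0 of 9 against 1.86% of 12839 genes, while 4 had an unadjusted p under 0.05 (Srf, Mrtfa, Runx1 and Klf5). DESeq2 called 0 of the 5 it gave an adjusted p and limma-voom 0 of 9. In tags 1 to 4 Klf4 stood at 135, 79.2, 80.7 and 69.2 CPM in positive cells and at 151, 60.5, 83.1 and 70.7 CPM in negative cells, with no common direction. Klf4 differed by -0.003 ± 0.073, Ets1 by -0.00056 ± 0.060, Mrtfb by -0.06 ± 0.08, Mef2c by -0.06 ± 0.11 and Myocd by 0.03 ± 0.32 on the log2 scale. Runx1 differed by 0.19 ± 0.06 and Klf5 by 0.30 ± 0.13, with adjusted p of 0.191 and 0.321. A miss does not show that they are alike in both kinds of cell.

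**Figure D3:**
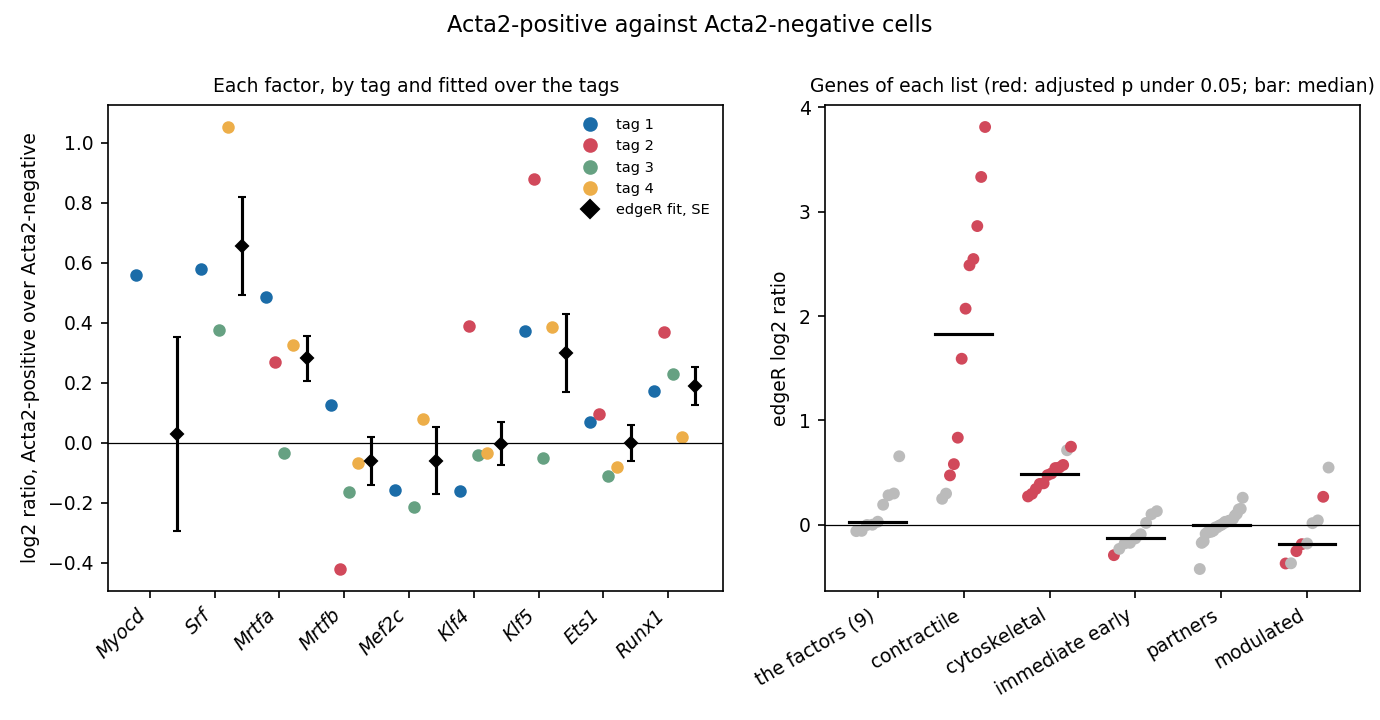
Log2 ratio of Acta2-positive over Acta2-negative cells (vertical axes) for each factor but Tcf21 by tag with the edgeR fit and its SE (left), and for the genes of each list (right, red where the adjusted p is under 0.05). A tag with under 50 UMIs of a factor has no point, as tag 2 for Srf. Srf is above 0 in tags 1, 3 and 4 without thinning, and 10 of 12 contractile targets passed the test.

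Of 12 contractile targets 10 were higher in Acta2-positive cells and 0 lower, with a median log2 difference of 1.83, among them Cnn1 at 3.81 ± 0.14 and Myl9 at 2.86 ± 0.08. Of 12 cytoskeletal targets 11 were higher with a median of 0.48, including Cnn2 at 0.75, Vcl at 0.57 and Actg1 at 0.48. Of 9 immediate early targets 1 was lower (Fos, -0.29, adjusted p of 0.0320 by edgeR), and of 23 partners and relatives of the factors none was called. Of 9 markers of modulated VSMCs, 1 was higher (Col1a1, 0.27) and 3 were lower (Spp1 at -0.37, Ly6a at -0.25 and Dcn at -0.19). Over all genes 1.86% were called. Over all genes the median was -0.005. Acta2 chose the cells, so these counts are not independent of genes detected in the same cells as Acta2.

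Among the genes higher in Acta2-positive cells, 18 of 145 with a promoter window (12.4%) held a CArG box, against 160 of 9928 tested genes (1.61%) and 0 of 41 lower genes. The promoters of 3 are shown because their genes passed the test and carry the box, in capitals, at chr2:156775214-156775463 on the plus strand, chr11:120348496-120348745 on the minus strand and chr14:20929148-20929397 on the plus strand (GRCm38.p6, RefSeq).
Myl9: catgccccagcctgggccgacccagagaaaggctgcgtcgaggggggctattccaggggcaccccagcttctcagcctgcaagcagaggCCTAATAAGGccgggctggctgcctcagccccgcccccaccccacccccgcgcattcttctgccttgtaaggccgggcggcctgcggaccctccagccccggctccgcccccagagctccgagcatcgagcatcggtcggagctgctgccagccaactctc
Actg1: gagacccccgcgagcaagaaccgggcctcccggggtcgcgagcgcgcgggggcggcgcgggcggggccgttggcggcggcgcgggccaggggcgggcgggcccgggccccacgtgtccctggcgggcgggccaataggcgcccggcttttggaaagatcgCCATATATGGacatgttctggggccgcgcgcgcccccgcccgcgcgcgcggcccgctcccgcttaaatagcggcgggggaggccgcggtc
Vcl: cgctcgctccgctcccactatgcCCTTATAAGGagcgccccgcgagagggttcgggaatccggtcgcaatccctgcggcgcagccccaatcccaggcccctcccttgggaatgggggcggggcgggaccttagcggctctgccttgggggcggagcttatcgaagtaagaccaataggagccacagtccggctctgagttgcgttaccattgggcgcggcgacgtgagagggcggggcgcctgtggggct
The box lay 161, 90 and 227 bases before the start in Myl9, Actg1 and Vcl, which encode a myosin light chain, a cytoplasmic actin and an adhesion protein. The windows of Acta2 and Cnn1 held no strict box, which is CC, then only A or T, then GG, as in the capitals above. The Acta2 window held near matches that differ from this pattern at a single base, and such matches were not counted.

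Cells of at least 5000 UMIs were also split by how much Acta2 they held after thinning, with 3470, 898, 750 and 534 cells at 0, 1, 2 to 4 and 5 or more UMIs. Mrtfb stood at 39.5, 39.9, 30.9 and 26.6 CPM, and its interval in the highest bin (20.8 to 33.5) lay below that at 0 (36.6 to 42.6). Ets1 stood at 60.0, 62.4, 58.9 and 46.1 CPM, Mrtfa at 89.6, 90.9, 112 and 110.5 CPM, and Tagln, a contractile gene, at 193, 434, 892 and 2166 CPM. Tags contribute unequally to the bins. From 0 to 5 or more Acta2 UMIs Mrtfa went from 75.9 (69.5 to 82.8) to 120.0 CPM (101.7 to 140.6) in tag 1. In tag 4 it went from 80.2 to 90.6 CPM, with overlapping intervals. It went from 101.5 to 90.7 CPM in tag 2 and from 123.1 to 112.9 CPM in tag 3, so the pooled rise was seen in tags 1 and 4 only. Mrtfb was lower in the highest bin in each tag, 22.75 against 33.4 CPM in tag 1 for example, with overlapping intervals in every tag. Between the same bins Klf4 went from 152.5 (143.3 to 162) to 122.4 CPM (103.9 to 143.1) in tag 1, without overlap. Its intervals overlapped in the other tags, where it was higher in tag 2 (63.6 to 85.3 CPM) and lower in tags 3 and 4. Ets1 went from 71.9 (63.65 to 80.96) to 44.3 CPM (30.1 to 62.9) in tag 3, and its intervals overlapped in the other tags.

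**Figure D4:**
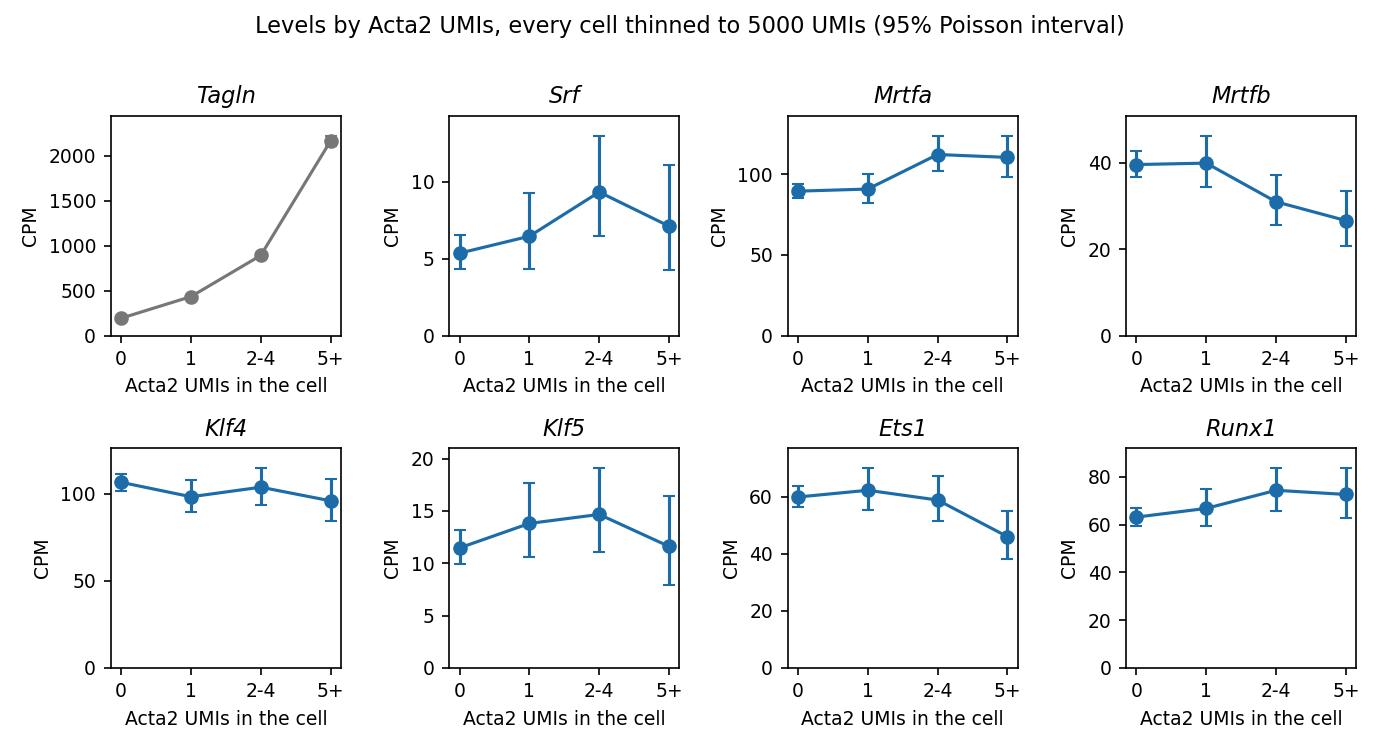
CPM (vertical axes, from 0) of Tagln and of the factors other than Myocd, Mef2c and Tcf21, with 95% Poisson intervals. Horizontal axes give cells with 0, 1, 2 to 4 and 5 or more Acta2 UMIs after thinning to 5000 UMIs. All tags are pooled, Mrtfb is lowest in the cells richest in Acta2, and the rise of Mrtfa to 110.5 CPM is not seen within tags 2 and 3.

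Clustering of all cells gave 14 clusters, described without tests. Every well-detected factor was lowest in cluster 8, 457 shallow cells with Malat1 at 792 CPM and 32.3% ribosomal protein UMIs, and Mrtfa was highest at 597 CPM in cluster 13, 86 cells with Malat1 at 89188 CPM. Malat1 is a nuclear RNA. Over the 13 clusters of at least 100 cells, which leave out cluster 13, the median of highest over lowest level was 13.0 for 7 factors, and without cluster 8 as well it was 2.98. In the VSMC-like cluster 6, with all 9 VSMC markers higher and Acta2 at 1245 CPM, Mrtfa stood at 140 CPM, Klf4 at 71.9 and Srf at 7.99. In cluster 11, with 8 of these markers higher and Acta2 at 1432 CPM, Mrtfa stood at 143 CPM, Klf4 at 113 and Srf at 9.06. Cluster 6 held 13, 85, 28 and 98 cells of tags 1 to 4, and cluster 11 held 161 cells of tag 1 and 0 of the others. In cluster 2, led by interferon genes, and cluster 7, led by mitosis and interferon-inducible genes, which were nearly all tag 1 cells (1735 of 1936 and 539 of 577), Klf4 stood at 158 and 169 CPM and Mef2c at 17.2 and 20.1 CPM. Cluster 10 held Ets1 at 115 CPM and Mrtfa at 48.1 CPM. Over the 12 clusters other than 8 and 13, which share a library and cultures, the level of Mrtfa followed that of Acta2 with r = 0.61, but -0.16 over all 14. Over the 12, Klf4 followed Mef2c with r = 0.64 and ran against Mrtfb with r = -0.64. Over all 14 these came to 0.90 and 0.55. There every pair of well-detected factors had a positive r, from 0.40 to 0.93. The genes most like Mrtfa over the 12 were Pdlim7 (0.96), Flna (0.96) and Nckap1 (0.95) among 6342 genes compared, while Runx1 had no gene above 0.76 (Fmn1). Runx1 also had the narrowest spread over these clusters, 1.53-fold, and Ets1 the widest, 5.66-fold.

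**Figure D5:**
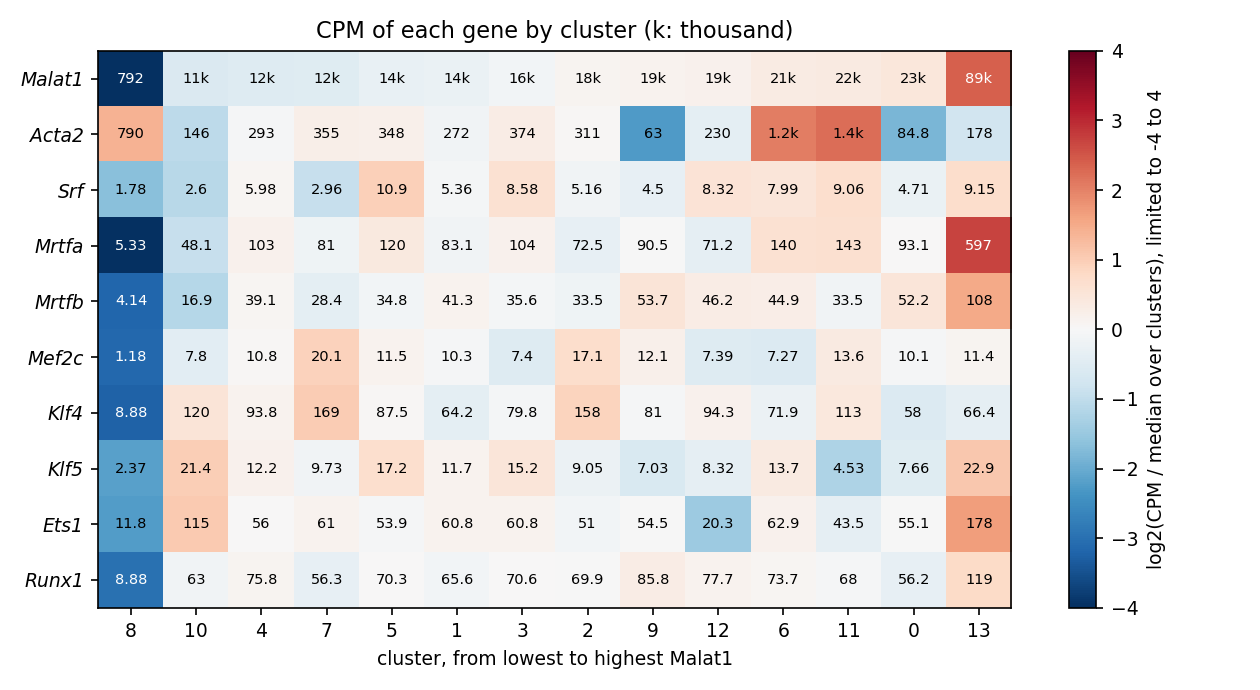
CPM of each gene (rows, numbers in the cells, k for CPM divided by 1000) by cluster (columns, from lowest to highest Malat1), coloured by the log2 ratio to the gene's median cluster. The factors are lowest in cluster 8 and Mrtfa reaches 597 CPM in cluster 13.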

How the data were processed

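The labels give 2 libraries, gene expression and hashtags, from one pool. The deposited file holds UMI counts made by the authors with Cell Ranger 4 (file header), and the submitters' processing notes also name Seurat. The authors' build: not given in the sources used here. Loci (GENCODE) and promoters (RefSeq) were read from GRCm38 tables, matched by Ensembl ID or symbol. Cells were barcodes with at least 2218 UMIs and 200 genes, tagged where only one hashtag passed its cutoff (36, 52, 61 and 41 UMIs). Scrublet (scanpy 1.11.5, expected rate 10%) marked 23.4% of cells as doublets, and these stayed in the main values. Ratios between tags used genes with at least 50 UMIs in the pair and a fold of 1.5. Acta2 status was tested with edgeR 4.0.16 on summed counts, leaving out Acta2, with TMM, the tag as block since both sums of a tag come from one culture, and Benjamini-Hochberg adjustment. DESeq2 1.42.0 and limma 3.58.1 were alternatives. Seurat 5.3.0 made the clusters (2000 variable genes, 30 components, resolution 0.8). The scripts were tested on simulated data. All 10 factors are named, and from each list the genes past the fold or test with its extremes were named. The factors and lists were chosen with earlier results of these data known.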

Additional observations from a re-analysis of the deposited data

Results flagged for a closer look

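The 5307 cells with no tag enter no comparison between groups, and 9 of the 10 factors had more than 3 UMIs in them, which is the reason they are listed here. Klf4 stood at 63.6 CPM and Ets1 at 53.3 CPM in these cells, below all 4 tags, and the other factors lay within the range of the tags, for example Mrtfa at 100.4 CPM and Myocd at 0.535 CPM. Of these cells 1590, 1357 and 439 were in clusters 0, 1 and 6, where most cells with a single tag were of tags 2 and 4. A further 669 were in cluster 3, mostly tag 3, and 100 and 15 in clusters 2 and 7, nearly all tag 1. Which cultures they came from was not tested.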

How the results depend on the processing

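After thinning to 5000 UMIs Mef2c was inside the fold. Myocd then had 2 UMIs in tag 2 and 31 in tag 1, at 0.840 and 2.59 CPM, and left the count for being under the minimum of 50 UMIs. The old over young count of 3 so came to 1 (Klf4). Its members also changed, with Srf lower with clear tags (0.588, on 6 UMIs in tag 2), Mrtfa higher in Y-linked cells without doublets (1.591), and, in cells with no dividing-cell marker, Mrtfb higher (1.531), Klf5 lower (0.501) and Mef2c inside the fold (0.952). The AngII count of 4 ran from 3 (Klf5 lost without clusters 2 and 11) to 5 (Mrtfa added without doublets). The siPiezo1 over old count of 0 came to 1 with a smaller fold (Mef2c) and to 1 in cells with Y-linked and no Xist UMIs without doublets (Mrtfa). For Acta2 status, the count of 0 factors came to 1 with 2 or more Acta2 UMIs (Srf), 2 with no filter on low counts (Mrtfa and Srf), 0 to 1 on leaving out one tag (Mrtfa without tag 3) and 1 without the clusters lowest and highest in Malat1 (Mrtfa). Other choices kept the count at 0 with smaller fitted log2 differences. Without called doublets Srf came to 0.52 and Mrtfa to 0.23, with edgeR adjusted p of 0.184 and 0.137. With clear tags they came to 0.41 and 0.22, with edgeR adjusted p of 0.560 and 0.452. After thinning they came to 0.56 and 0.18, with edgeR adjusted p of 0.288 and 0.275. Without the replicate block 0 factors and 1 gene were called, against 239 genes with it. Genes called numbered 135 by DESeq2, 654 with no filter, 95 with clear tags, 80 in the Y-linked cells and 113 to 168 on leaving out one tag, lowest without tag 2, and also 146 without tag 3 and 155 without tag 4. The median spread over clusters of 13.0 came to 4.77 without doublets and 2.98 without cluster 8, since cluster 13 was already under 100 cells. The cause was not tested for any of these.

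Factors with a fitted difference near 0 changed sign. Klf4 came to 0.00068 and 0.0031 at UMI minimums of 1000 and 5000, 0.053 in the Y-linked cells and 0.010 at 2 or more Acta2 UMIs. It also came to 0.029 by DESeq2, 0.0039 with no filter, 0.0072 with no replicate block and 0.022 without clusters 2 and 11. On leaving out one tag it ran from -0.073 to 0.080. Its value furthest from 0 was -0.14, after thinning to 5000 UMIs, with the sign of the main fit. Ets1 came to 0.0011 at 5000 UMIs, 0.0042 with clear tags, 0.11 in the Y-linked cells, 0.0045 by DESeq2, 0.0035 with no filter, 0.0054 with no replicate block, 0.012 without the end clusters, and -0.034 to 0.032 on leaving out one tag. Myocd came to -0.043 at 5000 UMIs, -0.10 by DESeq2 and -0.74 without clusters 2 and 11. Mef2c came to -0.11 to 0.015 on leaving out one tag and 0.018 without clusters 2 and 11. With its sign unchanged, Mef2c came to -0.19 in the Y-linked cells and -0.14 at 2 or more Acta2 UMIs. None of these passed the test. The Y-linked cells without doublets, cells with no dividing-cell marker, and both sets without clusters were chosen after seeing the data. Depth limits Myocd, Srf and Tcf21 most.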
